A study of Mus musculus with 8 samples.

Results

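Microglial genes were followed in the hippocampus of BTBR mice and of C57BL/6J (B6) controls. The list held 33 genes, chosen by name for their place in the identity and function of microglia, and every non-control probe that carried one of these names on the array was used. All 33 genes were on the array, with 52 probes, out of 27373 gene names in all, and all 33 had at least 1 probe that passed the filter on dim signals (47 of the 52 probes). The study set out to find which genes differ in expression in the hippocampus of BTBR mice, an inbred strain used as a model of autism spectrum disorders. Total RNA of the whole hippocampus from 4 BTBR T+ Itpr3tf/J mice and 4 wild type B6 mice was measured on single-color Agilent 4x44K arrays, with 1 array for each sample. All mice were males of 5 months that had received no drug. The labels enter C57BL/6J as strain background for the BTBR samples as well, and their title, source and genotype name BTBR. Each strain is represented by 4 mice of a single inbred stock, so that every difference below is one between strains, with all the alleles that separate them.

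Microglia are the resident macrophages of the brain. In the healthy tissue they carry receptors for chemokines, nucleotides and growth factors with which they survey their surroundings, a state called homeostatic. They take up debris and synaptic material with the help of receptors that signal through an ITAM motif (an activating tyrosine motif) or an ITIM motif (its inhibitory counterpart), and break it down in lysosomes. Further genes of the list, such as Ptprc, which encodes CD45, are also expressed by other leukocytes. They are called leukocyte-wide here, although not each of them is expressed by every kind of leukocyte. In whole tissue, fewer cells of a type and less RNA per cell cannot be told apart.

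Signal over background sets what the arrays can show. Between 56.8% and 71.9% of the probes were well above background on the B6 arrays and between 61.9% and 71.5% on the BTBR arrays. Of the 33 probes that stand for a gene, 32 were well above background on all 8 arrays, and none was saturated. Expression is given as normalized log2 intensity, to which an offset of 50 had been added before the logarithm, so that changes of dim probes are understated. A difference is BTBR minus B6, a gene is represented by its brightest tested probe, and a gene is called when its limma p-value, adjusted over all probes tested, was under 0.05. The number of arrays limits the precision, and with 4 arrays per strain an exact permutation test cannot fall below p = 0.0286, the value it gave for each of the 9 called genes named next. Nothing in the labels says how the animals of a strain were related, so that p-values measure the spread between these samples.

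Limma called 9 of the 33 genes. Expression of Ptprc, Tyrobp, Ctss, Trem2, Ly86, Laptm5, Itgam and Fcgr2b was lower in BTBR mice, 8 genes, where 4.33% of all 18399 genes tested were called lower. Cx3cr1 alone was called higher, where 3.49% of all genes were. The 4 BTBR arrays lay wholly below the 4 B6 arrays for 9 genes (7.3% of all genes) and wholly above them for 1 (7.11% of all genes). The median difference was -0.11 over the 33 genes and 0.01 over all genes tested. The rank product, the test named in the methods, called 4 of the 33 genes at a pfp of 0.05 or less: Cx3cr1 as higher, and Ptprc, Tyrobp and Ctss as lower.

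**Figure D1:**
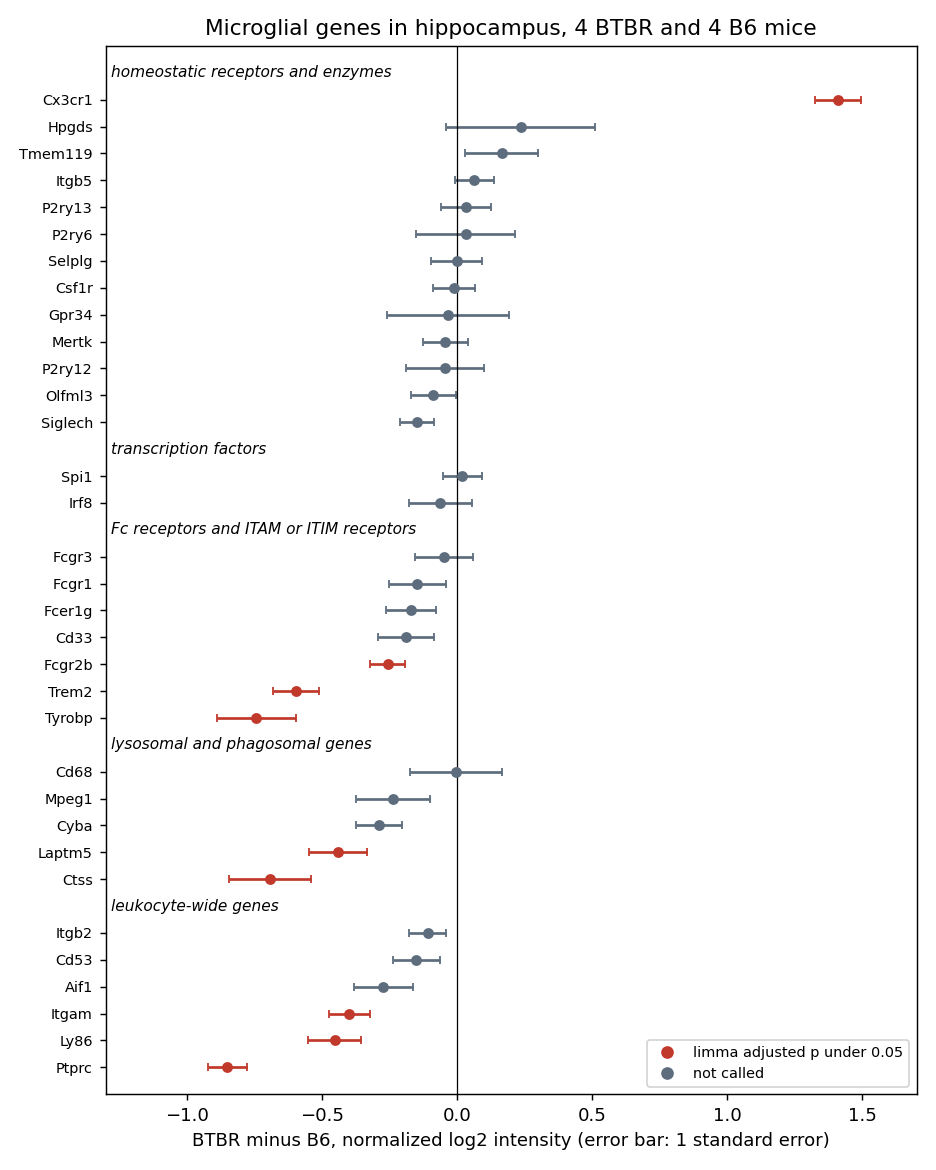
Difference between BTBR and B6 mice for the 33 genes, in normalized log2 intensity, with points at the brightest probe, bars of 1 standard error, and genes called by limma in red. Of the 13 homeostatic genes Cx3cr1 is called and lies at 1.41, whereas the lowest point of the plot is Ptprc at -0.85.

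Over all genes tested 7.82% were called in either direction. Among the 13 homeostatic receptors and enzymes 1 was called (7.69%, near that background), and the median difference was 0.00. Among the 7 Fc receptors and ITAM or ITIM receptors 3 were called lower, and the median was -0.19. Of 5 lysosomal and phagosomal genes 2 were called lower, with a median of -0.29, and of 6 leukocyte-wide genes 3 were called lower, with a median of -0.33. Every gene of the latter 3 groups had a BTBR mean below that of B6, called or not, although the sign of Cd68 (0.00 after rounding) changed in 11 of 23 alternatives and that of Fcgr3 (-0.05) in 3. Neither of the 2 transcription factors was called by limma or by the rank product, and neither had an unadjusted p under 0.05 (0 of 2). Differences between the groups were not tested.

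Cx3cr1 encodes the receptor for fractalkine, a chemokine made by neurons. It was measured by a pair of probes 1.5 log2 units apart in their strain difference, and the start of the brighter one and the whole of the other are shown because the finding turns on which probe is read. The brighter probe lies at chr9:119959018-119959077 and the other at chr9:119960610-119960669 (mm9, minus strand, coordinates as the array files give them).
Cx3cr1, brighter probe, first 30 bases: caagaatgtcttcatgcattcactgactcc
Cx3cr1, other probe: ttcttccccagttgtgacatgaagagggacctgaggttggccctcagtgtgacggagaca

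At the brighter probe the B6 arrays read 12.05, 12.06, 11.96 and 12.19 for replicates 1 to 4, and the BTBR arrays 13.31, 13.64, 13.49 and 13.46. Every BTBR array was above every B6 array. The difference was 1.41 (standard error 0.09, limma adjusted p = 1.1e-05), or 2.65-fold, and it was 1.41 within slide 1 and 1.40 within slide 2. At the other probe, which was also well above background on all 8 arrays, B6 read 8.70, 8.48, 8.46 and 8.36 and BTBR 8.37, 8.32, 8.59 and 8.33. Here the strains overlapped, with a difference of -0.10 (standard error 0.09, limma adjusted p = 0.67). The call of Cx3cr1 therefore rests on 1 of its 2 probes, and with the median over both the difference was 0.66 (limma adjusted p = 0.00041). Cx3cl1, the gene of the ligand fractalkine, differed by 0.12 (standard error 0.05, limma adjusted p = 0.29).

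The other 12 homeostatic genes were not called. Differences of the nucleotide receptors were -0.05 for P2ry12 (95% confidence interval from -0.38 to 0.28), 0.03 for P2ry13 (from -0.17 to 0.24) and 0.03 for P2ry6 (from -0.38 to 0.45). Tmem119, a surface protein by which microglia are told from other macrophages, differed by 0.17 (from -0.14 to 0.47). For Csf1r, the receptor for the survival factors Csf1 and Il34, 3 probes were tested, and they gave -0.01 (from -0.19 to 0.16), 0.00 (from -0.24 to 0.23) and 0.01 (from -0.18 to 0.19).

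The first Csf1r probe read 13.47, 13.46, 13.47 and 13.42 in B6 and 13.47, 13.61, 13.42 and 13.28 in BTBR mice. The second read 11.44, 11.47, 11.52 and 11.51 in B6 and 11.29, 11.64, 11.69 and 11.30 in BTBR mice, and the third 8.33, 8.40, 8.55 and 8.47 in B6 and 8.32, 8.58, 8.52 and 8.35 in BTBR mice. At all 3 the strains overlapped, and BTBR replicate 2 was above every B6 array.

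Siglech, a sialic acid binding lectin, was the homeostatic gene with the smallest p among those not called. It read 9.21, 9.18, 9.20 and 9.30 in B6 and 8.99, 9.16, 9.07 and 9.07 in BTBR mice. The strains did not overlap, but the difference of -0.15 (standard error 0.06) had a limma adjusted p of 0.25. Mertk, a receptor for the uptake of dying cells, differed by -0.04, the integrin subunit gene Itgb5 by 0.06, Olfml3 by -0.09 and Selplg, the gene of a ligand for selectins, by 0.00.

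For 3 homeostatic genes, Hpgds, Gpr34 and P2ry6, BTBR replicate 3 was the highest of all 8 arrays. The array values of these genes, like those of Siglech, Cd68 and Aif1, were picked for printing after they had been seen. Hpgds, a prostaglandin D synthase, read 8.54, 8.75, 9.92 and 8.68 in BTBR and 8.55, 8.75, 8.70 and 8.96 in B6 mice. Gpr34, a receptor for lysophosphatidylserine, read 9.09, 9.43, 10.28 and 9.40 in BTBR and 9.64, 9.67, 9.37 and 9.67 in B6 mice. P2ry6 read 9.45, 10.15, 10.41 and 9.99 in BTBR and 10.02, 9.88, 9.83 and 10.14 in B6 mice. The strains overlapped in all 3 genes. Their differences were 0.24 (standard error 0.28), -0.03 (standard error 0.23) and 0.03 (standard error 0.18), and without that array -0.08, -0.28 and -0.10, with none of the 3 called either way. BTBR replicate 3 was also the array with the highest mean of the blood markers, 1.71 above the mean of the 8 arrays over the 2 tested genes of that list (Hba-a1 and Alas2), and the part of blood in these values was not tested.

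Spi1 and Irf8 encode the transcription factors PU.1 and IRF8, on which microglia depend for their development. Irf8, which had the smaller p, read 10.90, 10.97, 10.97 and 11.03 in B6 and 10.79, 11.28, 10.76 and 10.80 in BTBR mice. The highest array of all was BTBR replicate 2, and the other 3 BTBR arrays were below all B6 arrays. The difference was -0.06 (95% confidence interval from -0.33 to 0.20, limma adjusted p = 0.84). For Spi1 it was 0.02 (from -0.14 to 0.18), at a probe whose signal in B6 mice exceeded background on 3 arrays, against 4 in BTBR mice.

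Tyrobp encodes the adaptor DAP12, which carries an ITAM, and Trem2 a lipid-sensing receptor that signals through it. Expression of both was lower in BTBR mice. Their probes are shown because each spans more of the genome than its 60 bases, 1728 positions for Tyrobp (chr7:31200651-31202378) and 137 for Trem2 (chr17:48491220-48491356, both on the plus strand of mm9), so that part of the genome between their ends is not in the probe.
Tyrobp: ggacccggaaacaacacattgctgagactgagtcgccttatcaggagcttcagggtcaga
Trem2, first 30 bases: gccaagatgctgggcaccaacttcagatcc

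Tyrobp read 13.96, 14.17, 14.08 and 13.84 in B6 and 13.20, 13.69, 13.22 and 12.97 in BTBR mice. All BTBR arrays were below all B6 arrays, with BTBR replicate 2 nearest to them. The difference was -0.74 (standard error 0.15, limma adjusted p = 0.015), or 59.8% of the B6 level, with -0.62 within slide 1 and -0.86 within slide 2. Without B6 replicate 2 it was -0.69 (limma adjusted p = 0.05) and without B6 replicate 3 it was -0.72 (limma adjusted p = 0.052), neither under the threshold.

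Trem2 read 11.64, 11.62, 11.51 and 11.55 in B6 and 10.91, 11.16, 11.05 and 10.81 in BTBR mice. No BTBR array reached the lowest B6 array. The difference was -0.60 (standard error 0.09, limma adjusted p = 0.0023), or 66.1% of the B6 level, and -0.60 within each slide. A second, brighter Trem2 probe was left out of the test because its spot was marked as an outlier on 1 of 8 arrays. It read 13.66, 13.79, 13.60 and 13.71 in B6 and 12.80, 13.34, 12.61 and 12.91 in BTBR mice. With probes so marked kept, that probe stood for Trem2 with a difference of -0.77 (limma adjusted p = 0.01).

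Of the 3 receptors for the Fc part of immunoglobulin G, Fcgr2b was called. Fcgr2b, the inhibitory receptor with an ITIM, read 9.06, 9.17, 9.10 and 9.03 in B6 and 8.82, 8.91, 8.72 and 8.87 in BTBR mice at its brightest probe, which is printed in 10 spots per array. The strains did not overlap, the difference was -0.26 (standard error 0.07, limma adjusted p = 0.047), and it was -0.25 and -0.27 within slides 1 and 2. The call was lost whichever array was left out, with differences between -0.28 and -0.22 and limma adjusted p between 0.053 and 0.14. Of 23 alternatives in all, 4 kept it, and it was also lost with the processed signal (-0.36, limma adjusted p = 0.08) and with the median over its probes (-0.15, limma adjusted p = 0.54).

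The other 2 Fcgr2b probes gave -0.15 and -0.22 and were not called (limma adjusted p = 0.55 and 0.28). One read 8.66, 9.03, 8.82 and 8.94 in B6 and 8.71, 8.86, 8.47 and 8.81 in BTBR mice, and the other 8.65, 8.57, 8.42 and 8.31 in B6 and 8.23, 8.17, 8.46 and 8.24 in BTBR mice. In both the strains overlapped.

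The activating receptors were not called. Fcgr1 differed by -0.15 (95% confidence interval from -0.39 to 0.09) and Fcgr3 by -0.05 (from -0.30 to 0.20). The mouse genes Fcgr2b and Fcgr3 are near-identical over the part that binds immunoglobulin, and whether a probe reads both was not tested. Fcer1g, the gene of the common gamma chain through which the activating receptors signal, differed by -0.17 (standard error 0.09) at its brighter probe and by -0.22 (standard error 0.08) at the other, where the strains did not overlap (limma adjusted p = 0.39 and 0.14). Cd33, a sialic acid binding lectin, differed by -0.19 (standard error 0.10, limma adjusted p = 0.40).

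Ctss encodes cathepsin S, a lysosomal protease that also trims the invariant chain of MHC class II. It read 15.72, 15.57, 15.36 and 15.27 in B6 and 14.66, 15.17, 14.82 and 14.51 in BTBR mice. The strains did not overlap, though BTBR replicate 2 at 15.17 came near the lowest B6 array at 15.27. The difference was -0.69 (standard error 0.15, limma adjusted p = 0.024), or 61.9% of the B6 level, with -0.73 within slide 1 and -0.65 within slide 2. It lost its call without B6 replicate 1, 2 or 3 or BTBR replicate 1 or 4, with differences between -0.73 and -0.60 and limma adjusted p between 0.052 and 0.076.

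Laptm5, the gene of a lysosomal membrane protein of hematopoietic cells, was lower at both of its probes. The brighter read 10.79, 10.55, 10.77 and 10.81 in B6 and 10.01, 10.43, 10.41 and 10.30 in BTBR mice, a difference of -0.44 (standard error 0.11, limma adjusted p = 0.037; -0.45 and -0.43 within slides 1 and 2). The other read 9.49, 9.29, 9.57 and 9.62 in B6 and 8.94, 9.28, 8.99 and 9.10 in BTBR mice, a difference of -0.42 (standard error 0.10, limma adjusted p = 0.035). No BTBR array reached the lowest B6 array at either probe, although at the second the gap was that between 9.28 and 9.29. The call was lost without B6 replicate 1, 3 or 4 or BTBR replicate 1 or 4, with differences between -0.45 and -0.35 and limma adjusted p between 0.053 and 0.11.

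The other 3 genes of this group were not called. Cyba, a subunit of the phagocyte NADPH oxidase, differed by -0.29 (standard error 0.09, limma adjusted p = 0.088). Mpeg1, the gene of the pore-forming perforin-2, differed by -0.24 (standard error 0.14, limma adjusted p = 0.42) at its brighter probe and by 0.00 at the other, which was well above background on 6 of the arrays. Cd68, a glycoprotein of late endosomes and a common marker of phagocytic microglia, read 10.52, 10.64, 10.49 and 10.36 in B6 and 10.41, 11.05, 10.26 and 10.27 in BTBR mice, with BTBR replicate 2 the highest of all and a difference of 0.00 (95% confidence interval from -0.39 to 0.38). Without BTBR replicate 2, Cyba was called at -0.34 (limma adjusted p = 0.048) and Mpeg1 at -0.38 (limma adjusted p = 0.028), and Cd68 stood at -0.19 and was not called.

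Ptprc was lower in BTBR mice by more than any other of the 33 genes in the main processing, but not in the deposited matrix or within slide 2, where Tyrobp was lower by more. Its single tested probe, in 10 spots per array at chr1:139960089-139960148 (mm9, minus strand), begins as follows and is shown because 3 further Ptprc probes did not pass the filter.
Ptprc, first 30 bases: ttatgggaaatgtaaaattgactatggcca

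Ptprc read 9.59, 9.48, 9.47 and 9.42 in B6 and 8.55, 8.79, 8.64 and 8.58 in BTBR mice. Of its spots over the 8 arrays, 4 were marked as outliers, too few to leave the probe out. The highest BTBR array, at 8.79, was below the lowest B6 array, at 9.42. The difference was -0.85 (standard error 0.07, limma adjusted p = 0.00011), or 55.5% of the B6 level, with -0.86 and -0.83 within slides 1 and 2. With Agilent's processed signal, to which no offset was added, it was -1.34, and in the deposited matrix it was -0.58, called in both. Of the other 3 probes, 2 were well above background on no array and the third on 3 arrays, so they give no second reading.

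Ly86, which encodes the MD-1 partner of a Toll-like receptor homologue, read 13.64, 13.50, 13.56 and 13.45 in B6 and 12.89, 13.32, 13.12 and 13 in BTBR mice. The strains did not overlap. The difference was -0.45 (standard error 0.10, limma adjusted p = 0.022), or 73.1% of the B6 level, with -0.46 and -0.44 within slides 1 and 2. It was not called without B6 replicate 1, 2 or 3 or BTBR replicate 1 or 4, with differences between -0.47 and -0.39 and limma adjusted p between 0.051 and 0.071.

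Itgam, the gene of the CD11b chain of complement receptor 3, was measured by 2 probes that lie near each other on chromosome 7, at chr7:135260933-135260993 and chr7:135261475-135261534 (mm9, plus strand), and that gave different results. Their first 30 bases are shown.
Itgam, brighter probe: gtctagatggtcagaccaacaccgaagcta
Itgam, other probe: gaatcgattaacccgtcaaagtacaaaaac

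The brighter probe read 8.53, 8.60, 8.69 and 8.80 in B6 and 8.17, 8.35, 8.23 and 8.28 in BTBR mice, without overlap. Its difference was -0.40 (standard error 0.08, limma adjusted p = 0.013), with -0.31 and -0.49 within slides 1 and 2. It was -0.88 with the processed signal and -0.27 in the deposited matrix, called in both. The other probe read 8.35, 8.38, 8.47 and 8.65 in B6 and 8.23, 8.25, 9.03 and 8.15 in BTBR mice, a difference of -0.05 (standard error 0.19, limma adjusted p = 0.92). At this probe 3 BTBR arrays were below all B6 arrays and BTBR replicate 3 was above them all. With the median over both probes Itgam differed by -0.22 and was not called (limma adjusted p = 0.33).

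Itgb2, whose product pairs with CD11b, differed by -0.11 (standard error 0.07, limma adjusted p = 0.47) and the tetraspanin gene Cd53 by -0.15 (standard error 0.09, limma adjusted p = 0.43). Aif1 encodes IBA1, the usual stain for microglia, and read 12.32, 12.30, 12.12 and 12.20 in B6 and 11.71, 12.19, 12.09 and 11.86 in BTBR mice. BTBR replicate 2 overlapped the B6 arrays and the other 3 were below them. The difference was -0.27 (standard error 0.11, limma adjusted p = 0.23), and the second Aif1 probe gave -0.23 (standard error 0.12, limma adjusted p = 0.34).

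**Figure D2:**
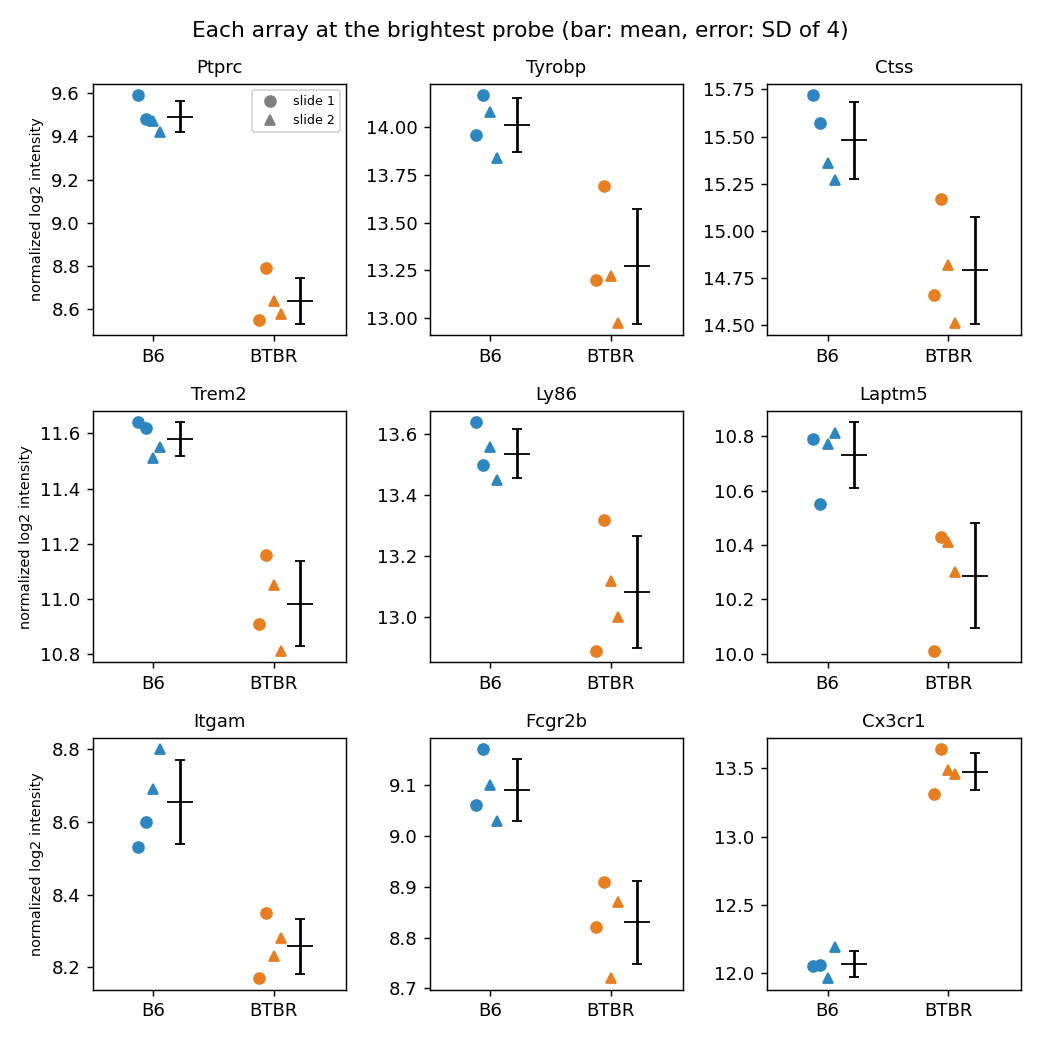
Normalized log2 intensity of the 9 called genes on each array, with B6 in blue, BTBR in orange, circles for slide 1, triangles for slide 2 and bars for the mean and SD of 4 arrays; each panel has its own axis. In all 9 panels the strains do not overlap, and BTBR replicate 2, the higher orange circle, is the BTBR array nearest to B6 for Ptprc, Tyrobp, Ctss, Trem2, Ly86, Laptm5, Itgam and Fcgr2b.

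More than 1 tested probe was present for 12 of the 33 genes. All probes were called for 1 of them (Laptm5), some for 3 (Cx3cr1, Itgam and Fcgr2b) and none for 8. The direction was the same at every tested probe for 10 of the 12, the exceptions being Cx3cr1 and Csf1r. The 21 genes with a single tested probe, Ptprc, Tyrobp, Trem2, Ctss and Ly86 among them, have no such check within the test. Whether BTBR mice carry other bases under any of these probes was not tested.

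**Figure D3:**
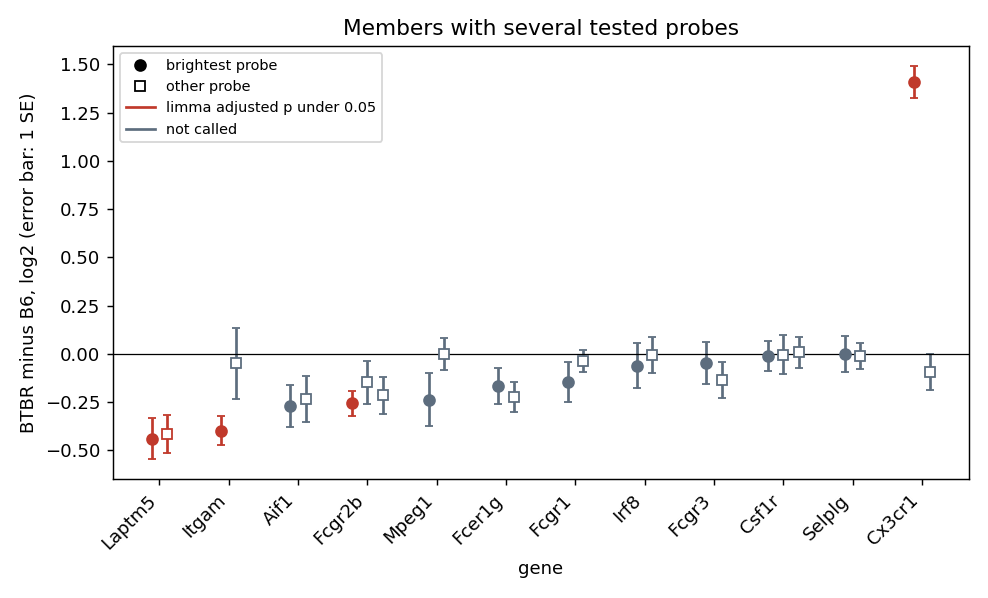
Strain difference (BTBR minus B6, log2, bars of 1 standard error) at each tested probe of the 12 genes with several, with filled circles for the brightest probe, open squares for others and red for limma calls. The Laptm5 probes lie together at -0.44 and -0.42, whereas those of Cx3cr1 lie at 1.41 and -0.10.

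The arrays sat on 2 slides, each with 2 arrays of either strain. All 9 called genes had the same direction on both slides. The strain difference of no member differed between slides at an adjusted p under 0.05 in limma, while Mertk (-0.21 on slide 1 and 0.13 on slide 2, unadjusted p = 0.032) and a probe each of Fcgr2b (-0.41 and -0.02, unadjusted p = 0.028) and Mpeg1 (0.18 and -0.18, unadjusted p = 0.018) were under 0.05 before adjustment. Within slide 1 alone 3 of 33 members were called and within slide 2 alone 4 of 33, where the percent of all genes called was 9.28 and 3.75, so that within slide 1 members were not called more often than genes at large.

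**Figure D4:**
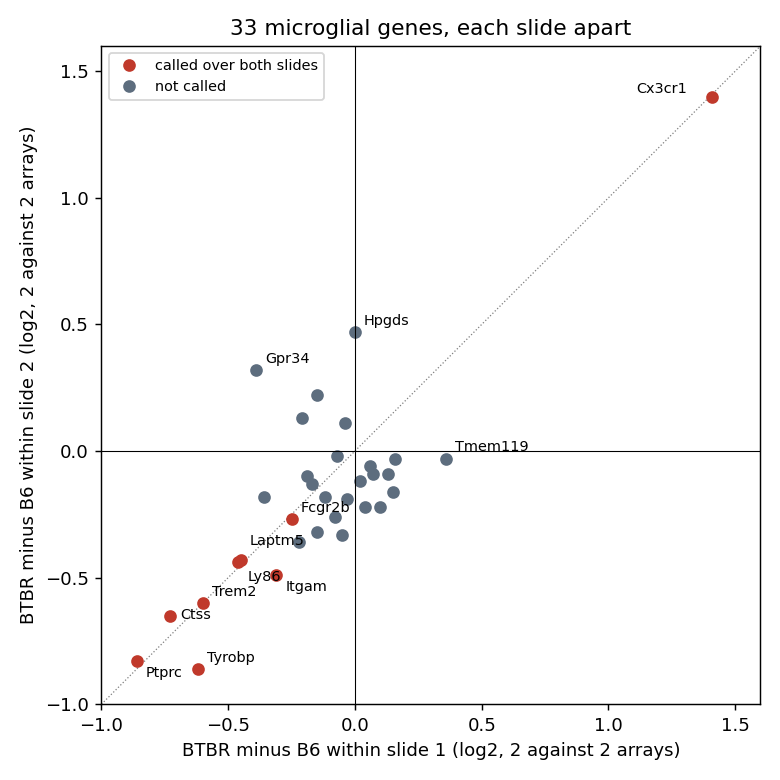
Strain difference of each of the 33 genes within slide 1 and within slide 2, in log2, with the dotted line at equal differences and red for genes called over both slides. Cx3cr1 lies at 1.41 and 1.40, and the 8 genes called lower all lie below 0 on both axes.

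The count of calls depended on single arrays. With 1 array left out in turn, Cx3cr1, Ptprc, Trem2 and Itgam were called each time. The number of members called lower was 4 without B6 replicate 1, B6 replicate 2, BTBR replicate 1 or BTBR replicate 4, 3 without B6 replicate 3, 6 without B6 replicate 4, 7 without BTBR replicate 3 and 9 without BTBR replicate 2. The percent of all genes called moved as well, from 7.82% with all arrays to between 5.57% and 8.06%.

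BTBR replicate 2 stood nearest to B6 in the groups with most calls. For the lysosomal and phagosomal genes the mean deviation from the average of 8 arrays was 0.17 in BTBR replicate 2 and between -0.31 and -0.23 in the other BTBR arrays, against 0.09 to 0.21 in B6. For the Fc receptors and ITAM or ITIM receptors it was 0.08 in that array, between -0.27 and -0.20 in the other BTBR arrays and between 0.10 and 0.20 in B6. For the leukocyte-wide genes it was -0.02, between -0.29 and -0.19, and between 0.15 and 0.22. Homeostatic genes showed no such order, with B6 between -0.12 and 0.01 and BTBR between -0.08 and 0.21.

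Marker lists of neighboring tissue and of other cells moved on some of the same arrays. The 6 thalamic genes, of which limma called 0, 0 had an unadjusted p under 0.05 and the rank product called 3 as higher, had a mean deviation of 2.26 in BTBR replicate 1 and between -0.62 and 0.28 in the other 7 arrays. The 5 tested hippocampal genes, of which limma called 0, 1 had an unadjusted p under 0.05 and the rank product called 3, were at -0.78 and -1.05 in BTBR replicates 1 and 2 and between -0.16 and 0.51 in the others. The 5 tested choroid plexus genes were at 1.06 and 0.96 in BTBR replicates 1 and 2, at -0.63 and -0.82 in BTBR replicates 3 and 4 and between -0.94 and 0.40 in B6. The 8 oligodendrocyte genes were highest in BTBR replicate 2, at 0.49, against -0.33 to 0.26 on the other arrays. The part of these 4 lists in the microglial values was not tested. Without BTBR replicate 1 the medians were -0.20 for the Fc receptor, -0.25 for the lysosomal and -0.28 for the leukocyte-wide genes, and without BTBR replicate 2 they were -0.26, -0.38 and -0.39.

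**Figure D5:**
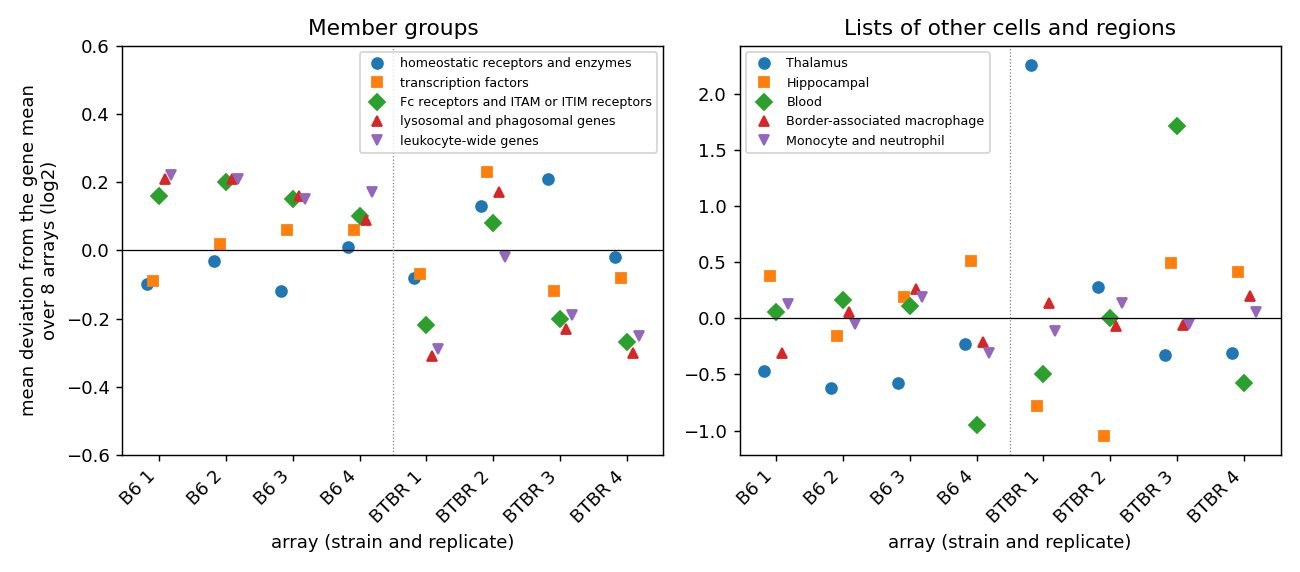
Mean deviation of each group of genes from its average over 8 arrays, in log2, for the member groups and for 5 lists of other cells and regions; the vertical scales differ between the panels. Fc receptor, lysosomal and leukocyte-wide genes lie above 0 on all B6 arrays and below 0 on BTBR replicates 1, 3 and 4, and the thalamic list reaches 2.26 in BTBR replicate 1.

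Other myeloid and blood cells could also carry leukocyte genes. The summed intensity of the 9 tested genes of border-associated macrophages ranged from 4560 to 7210 in B6 and from 5120 to 6590 in BTBR mice, with Cd163 and Siglec1 not tested because no probe of theirs passed the filter. Folr2 was the called gene of that list, higher by 0.70 in BTBR mice (standard error 0.17, limma adjusted p = 0.043). For monocytes and neutrophils 7 of 13 genes were tested, and the sum ranged from 43900 to 58600 in B6 and from 47000 to 77300 in BTBR mice. That sum mostly followed Ly6c2, with a mean log2 intensity of 15.45 in B6 and 15.64 in BTBR mice. Ly6c1 came next, at 12.43 and 12.73, so the sum says little about the other genes of the list. Limma and the rank product called 0 of the 7, with 1 at an unadjusted p under 0.05 and with Ccr2 among those not tested. Of 11 lymphocyte genes 5 were tested, with sums from 1400 to 1690 in B6 and from 1450 to 1660 in BTBR mice. Cd3d was called, higher by 0.38 (standard error 0.09, limma adjusted p = 0.039). Its signal lay near background, well above it on 6 arrays, with means of 7.83 in B6 and 8.21 in BTBR mice. Among other brain cells, 1 of 8 astrocyte genes was called (Gfap, with a difference of -1.3, limma adjusted p = 0.0014). The astrocyte list as a whole had 7 of 8 genes with a lower BTBR mean and a median of -0.20, with mean deviations between 0.10 and 0.16 in B6 and between -0.26 and -0.09 in BTBR mice, so that its arrays did not overlap between strains. Its part in the microglial values was not tested. The border macrophage, lymphocyte and astrocyte lists each held a single call, of 9, 5 and 8 genes tested, where 7.82% of all genes were called. Limma called 0 of 8 neuronal, 6 endothelial and 5 choroid plexus genes, of which 0 had an unadjusted p under 0.05 and 0 were called by the rank product. It also called 0 of 8 oligodendrocyte genes, with 1 at an unadjusted p under 0.05 and 1 called by the rank product, and 0 of 8 meningeal genes, with 2 and 3. These counts read the brightest probe of each gene. Named after their values were seen, dimmer probes were called for meningeal Igf2 (1.24, limma adjusted p = 0.033), neuronal Syt1 (-0.71, limma adjusted p = 0.013) and astrocyte Aldoc (-0.61, limma adjusted p = 0.0051). The brightest probe of each of them was not called.

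Among 28 tested genes of a further list of microglial genes, 4 were called lower and 1 higher, with a median of -0.04. Of all genes 4.33% were called lower and 3.49% higher, so that the single gene called higher is near the background share. C1qb (-1.01, standard error 0.11, limma adjusted p = 0.0006) and C1qc (-0.57, standard error 0.09, limma adjusted p = 0.0047) encode chains of the complement component that tags material for uptake. The remaining 2 were Slc2a5, a fructose transporter gene (-0.81, standard error 0.11, limma adjusted p = 0.0019), and Lpcat2, a lysophospholipid acyltransferase gene (-0.58, standard error 0.09, limma adjusted p = 0.004). Named after their values were seen, Rnase4 was the gene called higher (0.28, limma adjusted p = 0.044), and C1qa, the third chain, differed by -0.05 (standard error 0.09, limma adjusted p = 0.84). Sparc, also named after its values were seen, was not called at its brightest probe (0.31, limma adjusted p = 0.66). Its dimmer probe was called at 2.29 (limma adjusted p = 0.00051) and does not enter the counts.

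Of 21 tested genes that signal below the Fc receptors, 2 were called higher (3.49% of all genes were), the kinase subunit gene Pik3cg (0.46, standard error 0.07, limma adjusted p = 0.0054) and Ncf4 (0.50, standard error 0.12, limma adjusted p = 0.034), which encodes a cytosolic subunit of the NADPH oxidase to which Cyba belongs. The median of the list was 0.00, and Syk, the kinase recruited by phosphorylated ITAMs, differed by -0.05 (standard error 0.08, limma adjusted p = 0.79). Syk was picked for its role and after its value was seen.

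Genes that rise when microglia become activated were called in 1 of 20 cases (5%, against 7.82% of all genes), with a median of 0.03. The rank product called 1 gene of this list, as higher (Lpl, 0.94, limma adjusted p = 0.22, named after its value was seen). The gene called by limma was Csf1 (-0.29, standard error 0.07, limma adjusted p = 0.043), a ligand of Csf1r. At the brightest probes it was also the single called gene among 11 tested ligands and partners of microglial receptors, where the median was 0.11. Cd47 of that list, named after its values were seen, differed by 0.17 at its brightest probe (limma adjusted p = 0.32). A dimmer Cd47 probe was called at 0.94 (limma adjusted p = 0.00015), and its remaining probes were not called.

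Promoters of 25 of the 33 genes were found in a table of RefSeq start sites (GRCm38.p6). The 250 bases before the start were searched on both strands for GAGGAA, the core of sites bound by PU.1, which reads TTCCTC on the opposite strand. It was present for 13 of the 25 members (52.0%), for 5 of the 7 members called lower that had an entry, for 8 of the 17 that were not called, and for 25.9% of all 27025 genes of the table. The promoters of Ctss (chr3:95526536-95526785), Laptm5 (chr4:130913066-130913315) and Trem2 (chr17:48346151-48346400), all on the plus strand of GRCm38.p6, are shown with the matches in capitals. They are 3 of the 5 called lower that had a match, so that no promoter without a match is shown. A match is a description of letters and not a binding site.
Ctss: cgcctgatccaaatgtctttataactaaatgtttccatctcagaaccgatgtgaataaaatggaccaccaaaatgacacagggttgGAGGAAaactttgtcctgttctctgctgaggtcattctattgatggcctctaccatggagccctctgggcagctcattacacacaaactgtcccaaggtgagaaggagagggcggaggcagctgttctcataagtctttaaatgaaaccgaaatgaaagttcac
Laptm5: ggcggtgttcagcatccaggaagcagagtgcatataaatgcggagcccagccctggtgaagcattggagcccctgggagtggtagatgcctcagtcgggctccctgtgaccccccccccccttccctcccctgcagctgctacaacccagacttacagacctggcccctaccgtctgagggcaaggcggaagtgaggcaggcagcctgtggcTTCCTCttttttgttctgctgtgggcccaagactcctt
Trem2: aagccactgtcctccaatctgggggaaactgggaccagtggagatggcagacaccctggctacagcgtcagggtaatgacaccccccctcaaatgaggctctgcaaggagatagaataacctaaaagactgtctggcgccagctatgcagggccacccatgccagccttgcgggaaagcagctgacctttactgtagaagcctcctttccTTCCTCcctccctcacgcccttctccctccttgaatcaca

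The strand of the match differed, with GAGGAA itself in Ctss and its complement in Laptm5 and Trem2. The far edge of the match was 164 bases before the start in Ctss, 38 in Laptm5 and 40 in Trem2. Cx3cr1, the member called higher, had no match in this window, nor had Fcgr2b and Ly86 among those called lower.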

How the data were processed

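Total RNA from the whole hippocampus of 4 BTBR and 4 B6 mice was labeled with Cy3 and hybridized to Agilent 4x44K arrays, 1 per sample. Per the file headers, the authors extracted spot intensities with Agilent Feature Extraction 10.7.3.1, whereas the submitters' processing notes name version 9.1. The deposited matrix holds log2 values that the authors made, per their methods, with Agi4x44PreProcess and quantile normalization, taking the median of spots that repeat a probe. Groups came from the labels.

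Here, each of 45018 spots was taken as its mean intensity less the median background around it (floor 0.5), 50 was added, log2 was taken, and the 8 arrays were quantile normalized. Replicate spots were summarized by the median. Control probes were left out, as were 154 probes marked as outliers in at least 50% of their spots on any array, and probes well above background on at least 75% of the arrays of a strain were kept, 27982 of 41174. A gene was represented by its brightest tested probe. Strains were compared with limma 3.58.1 in R 4.3.3, with Benjamini-Hochberg adjustment over all probes tested and a threshold of 0.05. Two-sided exact permutation tests used all 70 assignments, and the methods' rank product used 100 permutations. The limma script was tested on simulated data. The alternatives were other background corrections, normalizations, filters, probe choices, blocks and thresholds, and leaving out each array.

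Members and lists were chosen with earlier results of these data known. Array values were printed for called members, for the member with the smallest p in a group without calls, and for every probe of members whose probes differed in call or direction, with added genes named as such. From each related list the called genes were named, at most 4, and from lists of other cells at most 2. A result from the list of Fc receptor signalling genes is not reported here. Probe coordinates are those of the array files (mm9), and promoters are from RefSeq (GRCm38.p6).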

Additional observations from a re-analysis of the deposited data

Results flagged for a closer look

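In 7 of 66 sets of 4 arrays of a strain, a member gene had 1 array that lay far from the other 3, with a gap to its nearest neighbor that, as a share of the whole range, exceeded Dixon's 95% critical value for 4 arrays. Chance alone flags about 1 in 20 such sets. In BTBR mice, Hpgds read 9.92 in replicate 3, with the next array at 8.75, and Irf8 read 11.28 in replicate 2, with the next at 10.80. In B6 mice, Tmem119 read 11.69 in replicate 1, with the next array at 12.20, and Laptm5 read 10.55 in replicate 2, with the next at 10.77. Gpr34 read 9.37 in B6 replicate 3, with the next at 9.64, and Olfml3 read 12.02 on the same array, with the next at 11.83. Csf1r read 13.42 in B6 replicate 4, with the next at 13.46, a gap that is large only against the narrow range of the other arrays.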

How the results depend on the processing

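Cx3cr1 was the member called higher under every alternative run. No alternative read its other probe alone, so these calls do not bear on the disagreement between its probes. The number called lower, 8, was 5 with Agilent's processed signal, 5 with the replicate block, 2 within slide 1, 3 within slide 2, 3 with the rank product and 2 at an adjusted p under 0.01. Under these settings the percent of all genes called, 7.82, was 7.21, 6.11, 9.28, 3.75, 4.34 and 4.33. The total, 9, was 3 within slide 1, 4 within slide 2, 4 with the rank product and 3 at an adjusted p under 0.01. With 1 array left out, the number called lower ranged from 3 (without B6 replicate 3) to 9 (without BTBR replicate 2) and the total from 4 to 10. The cause was not tested. No called member changed direction under any setting, and Cx3cr1 and Ptprc were called in all 23, whereas 15 of the 24 members not called changed direction in at least 1. Group medians moved by less than the spread between replicates throughout. The replicate numbers of the labels did not pair the arrays: same-numbered arrays correlated in their deviations at -0.14, 0.51, -0.10 and 0.39. With that paired replicate block, Laptm5 (limma adjusted p = 0.098), Ly86 (0.067) and Fcgr2b (0.099) were not called. Spi1 has no value where probes had to exceed background on all arrays. Probes near background limit Spi1, the second Mpeg1 probe and 3 Ptprc probes, and, in the lists of other genes, the calls of Cd3d, Folr2 and Pik3cg.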
